A study of Mus musculus with 24 samples.

Results

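Lungs of mice lacking both receptors for tumor necrosis factor (TNF) were compared with wild-type lungs in filtered air, that is, at baseline and with no ozone (O3). The comparison rests on the 6 arrays labelled as air, 3 Tnfr-/- and 3 Tnfr+/+, of 24 arrays in the series, and the other 18 arrays came from the same genotypes after 24, 48 or 72 h of 0.3 ppm O3. The Tnfr-/- mice carried targeted alleles of both receptor genes (B6.129S-Tnfrsf1a tm1Imx Tnfrsf1b tm1Imx/J) and the Tnfr+/+ mice were C57BL/6J. All were males of 6 to 8 weeks, each array held RNA of 1 mouse, and the RNA came from homogenized lung tissue. The length of stay in filtered air and the hour of killing are not given in the sources used here. Because the receptor alleles and the strain of origin of the line differ together between the groups, receptor loss and strain background cannot be told apart by the air comparison alone. Position in the genome, the O3 arrays and markers of other tissues were therefore set beside it as measurements.

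TNF is a cytokine released mainly by macrophages and lymphocytes, and it acts through 2 receptors on the cell surface. TNFR1, encoded by Tnfrsf1a, is found on most cells and can lead to NF-kB activity or to cell death, whereas TNFR2, encoded by Tnfrsf1b, is found mainly on leukocytes and endothelium. A gene disrupted in stem cells of another mouse strain and then bred onto C57BL/6 is known to keep a stretch of the donor chromosome around it, and C57BL/6J mice are known to carry a deletion in Nnt that many other strains lack.

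Of 20537 probe sets tested, 18 (0.0876%) differed between the genotypes in air at an adjusted p under 0.05, 11 higher and 7 lower in Tnfr-/- lungs (limma fitted to all 24 arrays, Benjamini-Hochberg over all probe sets). At an unadjusted p under 0.05 there were 1421 (6.92%), 678 higher and 743 lower. The number called depended on the arrays in the fit, and leaving out 1 of the O3 arrays, Tnfr+/+ O3 72 h replicate 1, gave 42. The 6 air arrays alone gave 13, of which 4 were among the 18, and array quality weights gave 99. The 6 air arrays resembled each other, with a mean correlation to the other 5 between 0.944 and 0.952. They held the lung genes Sftpc, a surfactant protein, between 30117 and 32126 and Scgb1a1, a club cell secretory protein, between 27318 and 30117 normalized intensity units, both at the top of the intensity scale, where quantile normalization fixes the values and a difference between genotypes cannot be read.

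The disrupted genes were measured first. Tnfrsf1b had a normalized intensity of 356.2, 411.4 and 377.7 in the Tnfr+/+ lungs and of 151.5, 204.5 and 234.2 in the Tnfr-/- lungs. The groups did not overlap, which was so in air for 15.4% of all probe sets. The signal fell by 0.98 on the log2 scale (SE 0.16, n = 3 and 3, limma adjusted p = 0.0177). The call was lost without Tnfr+/+ replicate 2 (adjusted p = 0.0881), Tnfr-/- replicate 1 (0.101) or Tnfr-/- replicate 2 (0.0582), with the direction kept. It was also lower at 24, 48 and 72 h of O3, with log2 differences of -0.72, -1.04 and -1.17. A dimmer Tnfrsf1b probe set differed by -0.24 with an adjusted p of 0.96. Tnfrsf1a had 2130, 3096 and 2146 units in Tnfr+/+ and 2052, 1670 and 1654 in Tnfr-/- lungs. All 3 Tnfr-/- values lay below the lowest Tnfr+/+ value of Tnfrsf1a, but the difference of -0.44 (SE 0.22) had an adjusted p of 0.744. Which part of either transcript the disruption removes was not given in the sources used here, so a probe set outside that part would not check the labels.

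Beyond the receptors, no gene of TNF signaling was called in air, where only 0.0876% of all probe sets were. Of 29 genes of TNF signaling tested, Tnfrsf1b was the 1 that passed the adjusted test, and the median log2 difference of the list was 0.038, against -0.002 over all 11597 genes. The 3 ligand genes, Tnf, Lta and Ltb, had differences of 0.17, -0.53 and 0.07, and none had an adjusted p under 0.942. Among 15 adaptors and kinases, 2 had an unadjusted p under 0.05, as did 6.51% of all genes. Ikbkb, the catalytic IkB kinase, had 864.6, 829 and 834.4 units in Tnfr+/+ and 1186, 1005 and 1205 in Tnfr-/- lungs (log2 difference 0.42, limma adjusted p = 0.531). Its dimmer probe sets differed by -0.94, 0.05 and -0.01. Cflar, an inhibitor of caspase 8 at the receptor, had 1242, 1282 and 1349 against 931.1, 1049 and 1152 (log2 difference -0.31, adjusted p = 0.528). The dimmer Cflar probe sets differed by -0.80, 0.33 and 0.21. The 4 NF-kB subunits tested, Nfkb2, Rela, Relb and Rel, lay between 0.1 and 0.42 and the 5 inhibitors, among them Nfkbia and Tnfaip3, between 0.04 and 0.31, with the smallest adjusted p at 0.833. Of 35 NF-kB target genes 0 passed the adjusted test, and 6 were lower and 0 higher at an unadjusted p under 0.05, where 3.73% of all genes were lower and 2.79% higher. The first of these in order of p was Saa3, an acute phase protein made in lung, with 200.6, 192 and 196.8 units in Tnfr+/+ and 85.06, 98.01 and 77.86 in Tnfr-/- lungs (log2 difference -1.18, SE 0.23, adjusted p = 0.0547). Saa3 was called in 7 of 16 alternative settings, and in none of the 6 that left out an air array.

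The 18 called probe sets held 15 with 1 gene, for 11 genes in all, and 3 without a single gene in the array annotation. Those 3 were higher in Tnfr-/- lungs by 1.02 to 1.26 on the log2 scale. The groups did not overlap in air for any of the 18, as for 15.4% of all probe sets. For 13 of the 18, the 12 Tnfr-/- arrays also lay apart from the 12 Tnfr+/+ arrays with the O3 arrays included, which was so for 0.166% of all probe sets. The O3 arrays share no mouse with the air contrast, but they entered its normalization, its filter and the pooled spread. In them 17 of the 18 had the same direction at all 3 times, compared with 25.3% of all genes, and 15, 11 and 13 were called at 24, 48 and 72 h, where 1%, 0.166% and 0.161% of all probe sets were called. By gene, 10 of the 11 kept their direction. The exception was Apoa1. Without any 1 of the 6 air arrays, Pttg1 (both probe sets), Rab6b, Nnt and 1 probe set each of Vamp3, Dbp and Wdfy1 remained called in the limma fit. The number of called genes that kept their direction was 6 without Tnfr-/- replicate 2.

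**Figure D1:**
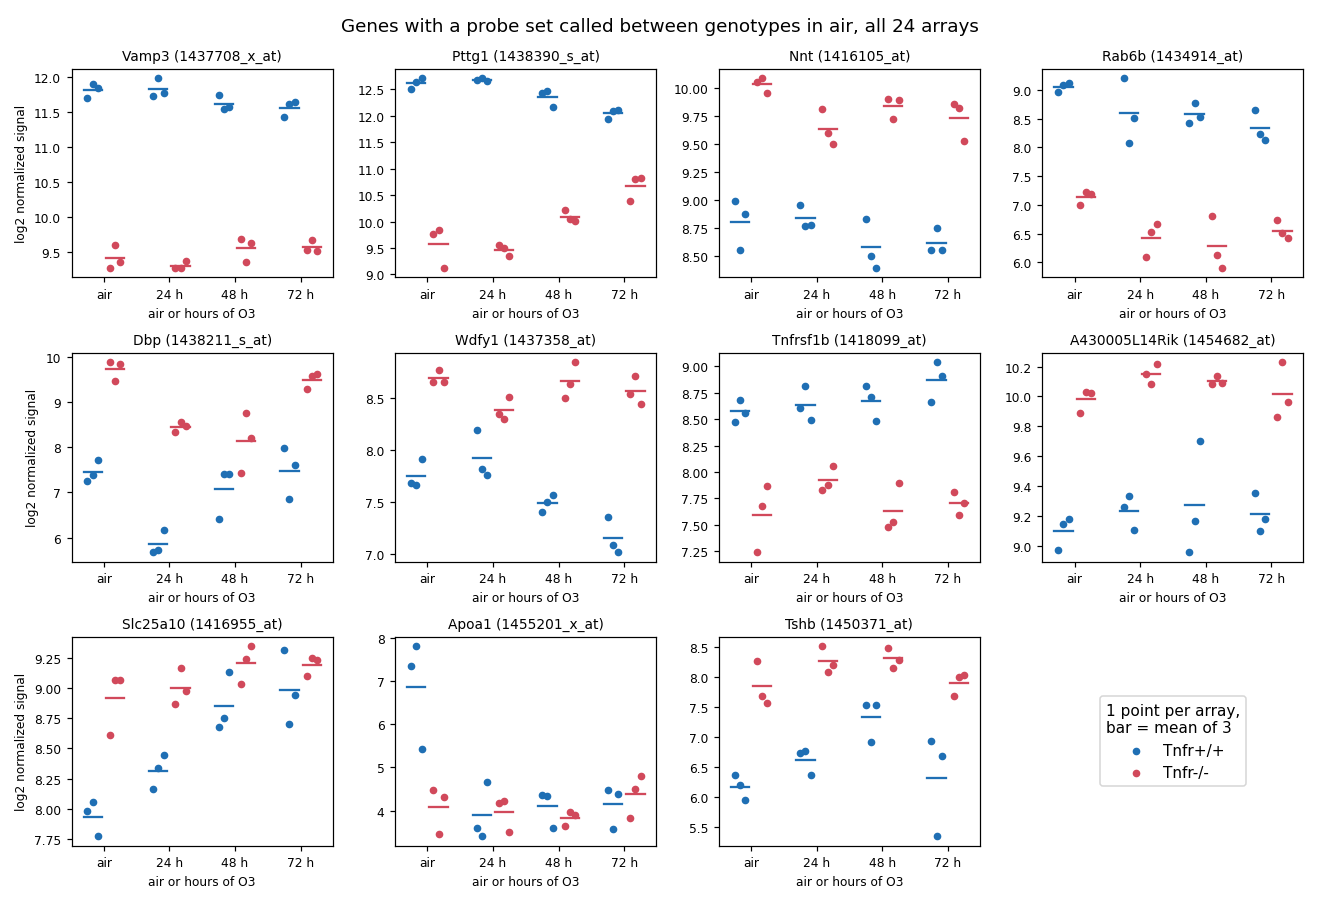
Normalized intensity (log2, vertical axis) of the 11 genes with a called probe set in air, for each of the 24 arrays, by air or hours of O3 (horizontal axis); points are arrays and bars are means of 3. In air the 3 Tnfr-/- arrays lie apart from the 3 Tnfr+/+ arrays in each panel, and Apoa1 shows this in air alone.

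The genes that fell were led by Pttg1, which encodes securin, the inhibitor that keeps separase from parting sister chromatids before anaphase. Its brightest probe set had 5845, 6351 and 6695 units in Tnfr+/+ and 873.4, 911.8 and 558.2 in Tnfr-/- lungs. It fell by 3.04 on the log2 scale (SE 0.16, limma adjusted p = 1.78e-09), and a second Pttg1 probe set fell by 3.51 (adjusted p = 7.99e-07). The gap was smaller at the later O3 times, with differences of -3.21, -2.26 and -1.38 at 24, 48 and 72 h. Pttg1 was the 1 called gene of 33 genes of mitosis and cell division, whose median difference was -0.234. Rab6b, a small GTPase of Golgi transport, had 499, 543.3 and 558.3 units against 128, 149.9 and 146.7 and fell by 1.92 (SE 0.25, limma adjusted p = 0.00172). Its differences after O3 were -2.16, -2.29 and -1.78.

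Vamp3, a SNARE protein of endosome recycling, gave different answers by probe set. One of its 5 probe sets had 3329, 3846 and 3669 units in Tnfr+/+ and 616.2, 772.2 and 651.3 in Tnfr-/- lungs and fell by 2.41 on the log2 scale (SE 0.12, limma adjusted p = 1.51e-09). A dimmer one fell by 1.15 (adjusted p = 0.022) and was no longer called after leaving out 5 of the 6 air arrays in turn (adjusted p from 0.0587 to 0.139). The brightest Vamp3 probe set did not overlap between the groups either, as for 15.4% of all probe sets. It differed by -0.47 with a limma adjusted p of 0.26. The other 2 differed by -0.19 and -0.07, so the probe sets of Vamp3 disagreed in size.

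The genes that rose included Nnt, the mitochondrial transhydrogenase that makes NADPH. Nnt had 510.6, 376.9 and 468.5 units in Tnfr+/+ and 1067, 1090 and 994.9 in Tnfr-/- lungs. Its groups did not overlap, as for 15.4% of all probe sets. Nnt rose by 1.23 on the log2 scale (SE 0.14, limma adjusted p = 0.000365), and its difference was 0.80, 1.26 and 1.12 at 24, 48 and 72 h of O3. Nnt was the 1 called gene of 27 in the list of NRF2 and NADPH-linked redox genes, whose median was 0.002. Of 41 genes of the respiratory chain 0 were called.

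Wdfy1, an adaptor of endosomal Toll-like receptors, had 204.8, 202.7 and 240.5 units against 401.6, 436.7 and 403.6 and rose by 0.94 (limma adjusted p = 0.0038), with a second Wdfy1 probe set higher by 1.05. A430005L14Rik, a gene of unknown function, had 501.6, 565.2 and 579.4 against 948.3, 1043 and 1042 (0.88, limma adjusted p = 0.022) and had differences of 0.92, 0.83 and 0.81 at the O3 times. Tshb, the beta subunit of thyroid-stimulating hormone, had a low signal of 82.47, 73.5 and 61.89 against 310.3, 206.9 and 190.9 (1.68, limma adjusted p = 0.0347). These 3 genes and Slc25a10, the mitochondrial dicarboxylate carrier, had non-overlapping groups, as had all 18 called probe sets and 15.4% of all probe sets. On 1 probe set Slc25a10 had 252.1, 266 and 218.6 units against 390.9, 536.3 and 536.8 and rose by 0.98 (limma adjusted p = 0.0247), while its brighter probe set differed by 0.24 with an adjusted p of 0.847. The difference of the former was 0.69, 0.35 and 0.21 at 24, 48 and 72 h of O3. Calls of A430005L14Rik and Slc25a10 were lost after leaving out 5 of the 6 air arrays in turn (adjusted p up to 0.128 and 0.139), and those of Tshb and the second Wdfy1 probe set after leaving out any of the 6 (up to 0.176 and 0.139).

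**Figure D2:**
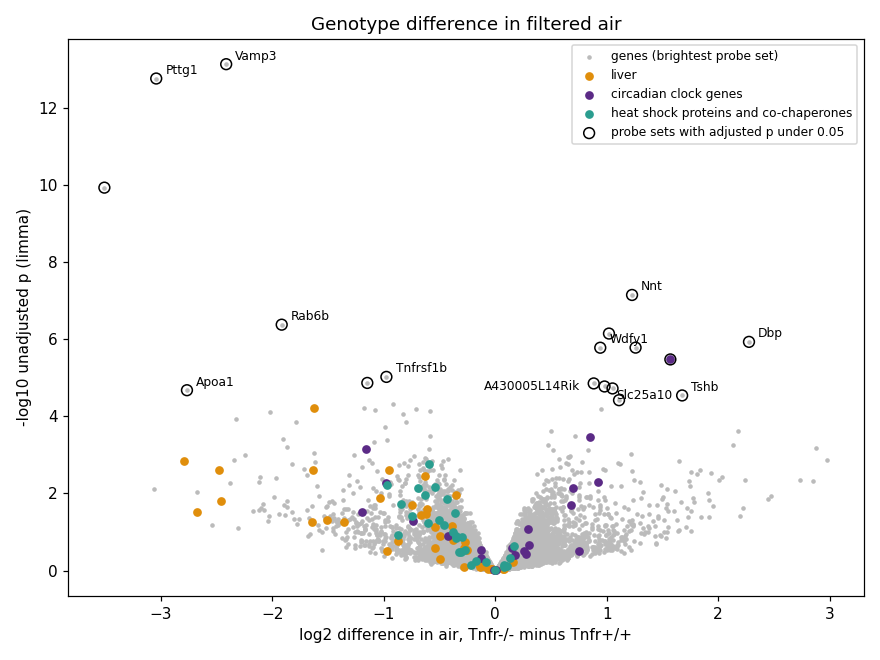
The log2 difference in air (horizontal axis, Tnfr-/- minus Tnfr+/+) against the -log10 of the unadjusted limma p (vertical axis), 1 point per gene with 3 gene lists coloured and the 18 called probe sets ringed. Pttg1 and Vamp3 stand highest, and most liver genes lie to the left of 0 without a ring.

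Position on the chromosome was then examined, with gene positions taken from RefSeq (GRCm38.p6) and used only as distances. Tnfrsf1b lies on chromosome 4 and Tnfrsf1a on chromosome 6. Within 20 Mb of Tnfrsf1b lay 3 of the 11 called genes, Tnfrsf1b itself, Vamp3 at 5.8 Mb and A430005L14Rik at 8.7 Mb, and within 20 Mb of Tnfrsf1a lay 0. Without Tnfr+/+ replicate 2, Tnfr-/- replicate 1 or Tnfr-/- replicate 2 this number was 1. The 281 genes tested within 20 Mb of Tnfrsf1b included 32 (11.4%) with an unadjusted p under 0.05, against 6.51% of all genes. More of them also held their direction at all 3 O3 times, 23 of 281 (8.19%) against 2.62% of all genes and 1.22% of the 409 genes elsewhere on chromosome 4. Closer in, it was 10 of 64 within 5 Mb and 17 of 154 within 10 Mb. Around Tnfrsf1a it was 5 of 105 within 5 Mb and 7 of 229 (3.06%) within 20 Mb. These counts are descriptions, and which chromosome stretches come from the donor strain in these mice was not tested.

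Genes near Tnfrsf1b were found with both signs. Rpl22, a ribosomal protein at 7.1 Mb, had 2806, 2766 and 2236 units in Tnfr+/+ and 1254, 1277 and 1390 in Tnfr-/- lungs, a difference of -0.99 with an adjusted p of 0.0844 in the limma fit. Gnb1, a G protein beta subunit at 10.3 Mb, had 2960, 3816 and 3673 against 5455, 5533 and 6124, a difference of 0.72 (adjusted p = 0.122). Plod1, a collagen lysyl hydroxylase at 2.7 Mb, had 752.4, 868.9 and 646.2 against 1302, 1279 and 1427, a difference of 0.83 (adjusted p = 0.192). For each of these the groups did not overlap in air, which was so for 15.4% of all probe sets. The sign of each was the same at the 3 O3 times, although the adjusted test was not passed. The podoplanin gene Pdpn, a marker of alveolar type 1 cells, lay 1.9 Mb from Tnfrsf1b with a difference of -0.54 (adjusted p = 0.392), while the median of the 13 type 1 cell genes tested was 0.002.

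**Figure D3:**
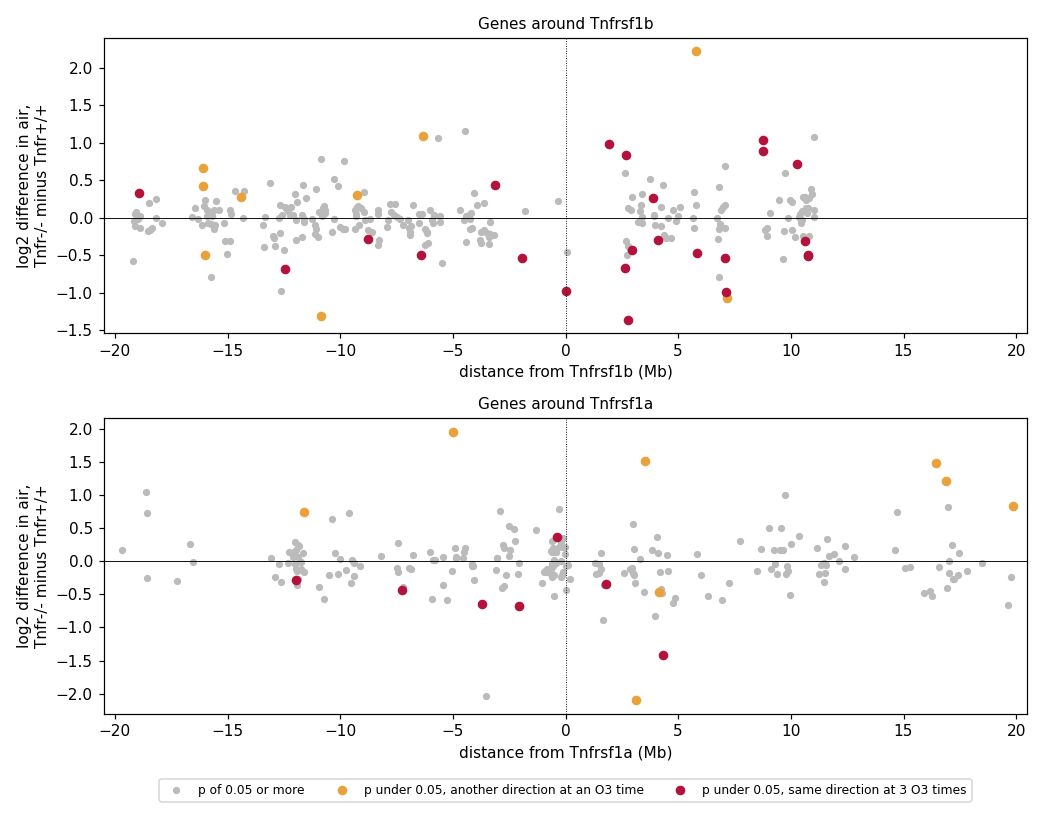
The log2 difference in air (vertical axis) of the genes within 20 Mb of Tnfrsf1b (upper panel) and Tnfrsf1a (lower panel) against distance in Mb (horizontal axis), with genes of unadjusted p under 0.05 coloured by whether their sign was the same at all 3 O3 times. The 23 genes of the latter kind around Tnfrsf1b lie on both sides of 0, and there are 7 around Tnfrsf1a.

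The circadian clock was examined next. It is a loop in which BMAL1 (Arntl) with CLOCK or NPAS2 drives genes through E-boxes, among them Dbp, Tef, Nr1d1 and Nr1d2, and the REV-ERB products of Nr1d1 and Nr1d2 repress Arntl, Npas2 and Nfil3 through ROR elements. Of 21 clock genes tested, 1 (Dbp) passed the adjusted test. At an unadjusted p under 0.05, 5 were higher (Dbp, Tef, Nr1d2, Nr1d1 and Per2) and 3 lower (Arntl, Nfil3 and Npas2), where 2.79% and 3.73% of all genes were. Each of these 8 but Per2 had the same sign at all 3 O3 times.

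Of the 8 clock genes with an unadjusted p under 0.05, the promoters of Arntl, Nfil3 and Tef are shown because an element of this loop was found in them. None was found in those of Dbp, Nr1d1, Nr1d2 and Npas2, which says only that these letters are not in the windows searched. The motifs searched, on both strands and in the 300 bases from 250 before to 50 after the start, were CACGTG (E-box), TAGGTCA (ROR element) and TTANGTAA (D-box). They occurred in 7.15%, 2.61% and 2.32% of the 32851 mouse promoters of RefSeq (GRCm38.p6). Of the 21 clock genes 18 had a promoter in that set, and the E-box was in Bhlhe41, Cry1, Per1 and Tef, the ROR element in Arntl and Nfil3 and the D-box in Per3. Capitals mark the motif, and a match is a description of the letters, not a shown site of binding. For Arntl, whose match lies after the start, only the bases beside it are given. The Tef stretches are the matches before its 2 annotated starts.
Arntl (chr7:113207533-113207555, plus strand): gcagaaagTAGGTCAgggacgga
Nfil3 (chr13:52981040-52981121, minus strand): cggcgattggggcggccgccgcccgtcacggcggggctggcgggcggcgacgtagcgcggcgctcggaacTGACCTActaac
Tef (chr15:81802476-81802621, plus strand): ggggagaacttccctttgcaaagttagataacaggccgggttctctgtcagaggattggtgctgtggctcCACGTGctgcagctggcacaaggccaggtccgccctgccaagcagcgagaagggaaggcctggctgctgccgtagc
Tef (chr15:81811206-81811351, plus strand): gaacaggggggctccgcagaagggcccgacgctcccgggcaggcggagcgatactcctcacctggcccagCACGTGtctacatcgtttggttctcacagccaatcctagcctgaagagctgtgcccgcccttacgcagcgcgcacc

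Dbp, a transcription factor that binds D-boxes, was the 1 clock gene that passed the adjusted test, and it rose. Its brightest probe set had 277.4, 289.6 and 457.7 units in Tnfr+/+ and 941.3, 837.5 and 1223 in Tnfr-/- lungs (log2 difference 1.57, SE 0.24, limma adjusted p = 0.00687), and a second rose by 2.28 (adjusted p = 0.00343). The call of the brightest was lost without Tnfr+/+ replicate 1 or 2 or Tnfr-/- replicate 3 (adjusted p from 0.0528 to 0.0629), while that of the second remained without each of the 6. The difference at 24, 48 and 72 h of O3 was 1.60, 0.73 and 1.62. Tef, the related factor whose E-boxes are printed above, had 2244, 2957 and 3252 against 4589, 5299 and 5160 (0.85, adjusted p = 0.122). Arntl, with the ROR element above, had 537.8, 545.2 and 528 against 229.6, 285.6 and 210.3 (-1.16, SE 0.29, limma adjusted p = 0.188). Nfil3, a repressor at D-boxes, had 261.3, 212.7 and 193.9 against 103.2, 127.4 and 106.7 (-0.98, adjusted p = 0.382). The groups did not overlap in air for any of these 4 genes, which was so for 15.4% of all probe sets.

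Per2 had 267.2, 203 and 376.1 in Tnfr+/+ and 322.6, 456.6 and 569.7 in Tnfr-/- lungs, which overlapped, and its difference was 0.68 in air and -1.09 at 24 h of O3. Per3, which lies 5.8 Mb from Tnfrsf1b beside Vamp3, differed by 0.17 (adjusted p = 0.957). The other 13 clock genes had an unadjusted p of 0.05 or more. Whether the genotypes were killed at the same hour was not tested.

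**Figure D4:**
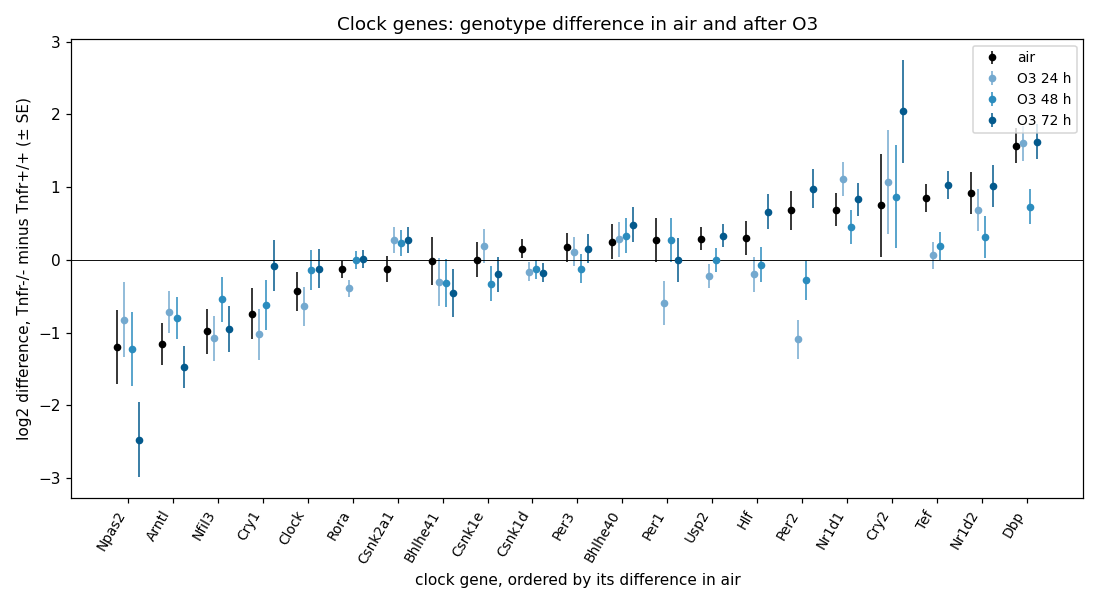
The log2 difference (vertical axis, Tnfr-/- minus Tnfr+/+, bars ± SE of the limma fit, n = 3 and 3) of the 21 clock genes in air and at 3 O3 times, ordered by the difference in air (horizontal axis). Arntl, Nfil3 and Npas2 are below 0 and Dbp, Nr1d1 and Nr1d2 above it in all 4 conditions.

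Liver genes were examined as a mark of other tissue in the sample, which are not made in quantity by lung cells. Of 39 liver genes tested, 36 had a lower level in Tnfr-/- lungs, 15 were lower at an unadjusted p under 0.05 and 0 higher, and the median difference was -0.54. Over all 11597 genes 5847 had a negative difference, 3.73% were lower and 2.79% higher. With a filter at the array median, the liver median was -0.272. None of the representing probe sets was called. Albumin (Alb) had 620.1, 936.3 and 327.8 units in Tnfr+/+ and 128.4, 191.3 and 264.8 in Tnfr-/- lungs (-1.62, SE 0.31, limma adjusted p = 0.0547). Apoa2, a protein of high density lipoprotein, had 333.2, 409.6 and 171.3 against 32, 32.8 and 129.1 (-2.48, adjusted p = 0.307). Serpina1b, an antitrypsin of plasma, had 107, 217 and 13.09 against 10.15, 5.742 and 15.53 (-2.80, adjusted p = 0.262), so that its groups overlapped through the third Tnfr+/+ array.

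Apoa1, the main protein of high density lipoprotein, belonged to this list. Its called probe set had 162.3, 223.3 and 42.99 units in Tnfr+/+ and 22.27, 11.07 and 20.05 in Tnfr-/- lungs and fell by 2.77 (SE 0.49, limma adjusted p = 0.027), a call that was lost after leaving out 5 of the 6 air arrays in turn (adjusted p from 0.0553 to 0.149). After O3 all arrays of both genotypes lay between 10.6 and 27.84, and the differences were 0.08, -0.27 and 0.23. The brightest Apoa1 probe set had 228.1, 239.7 and 184.1 against 60.05, 74.64 and 75.17 in air (-1.63, adjusted p = 0.307) and was lower in Tnfr-/- lungs at each O3 time as well, by 0.68 to 1.41. Liver genes as a list had the mean log2 level 7.41, 7.48 and 6.94 in the Tnfr+/+ and 6.39, 6.53 and 6.62 in the Tnfr-/- air arrays. The 18 O3 arrays ranged from 6.43 to 6.96, so the first 2 Tnfr+/+ air arrays were above all of them. The number of liver genes lower at an unadjusted p under 0.05 was 9 without Tnfr+/+ replicate 2, 8 without Tnfr-/- replicate 1 and 20 without Tnfr+/+ replicate 3. The part that liver RNA in single samples has in the liver list was not tested.

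Heart muscle genes varied between single arrays of both genotypes. The cardiac list had a mean log2 level of 9.04, 8.18 and 8.94 in Tnfr+/+ and 8.59, 8.65 and 7.82 in Tnfr-/- air arrays, so that the groups overlapped, and the median difference of 29 genes was -0.38. At an unadjusted p under 0.05, 5 were lower and 0 higher (3.73% and 2.79% of all genes), and the count of lower genes ran from 1 without Tnfr+/+ replicate 1 or 3 or Tnfr-/- replicate 3 to 15 without Tnfr+/+ replicate 2. Nppa, the atrial natriuretic peptide, had 591.9, 256.4 and 576.3 against 342.3, 282.1 and 53.48 (-1.36, limma adjusted p = 0.602), and it also lies 2.8 Mb from Tnfrsf1b. Of the other tissue lists, skeletal muscle, adipose tissue, thymus, cartilage and thyroid, and esophageal epithelium had medians between -0.115 and 0.02.

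**Figure D5:**
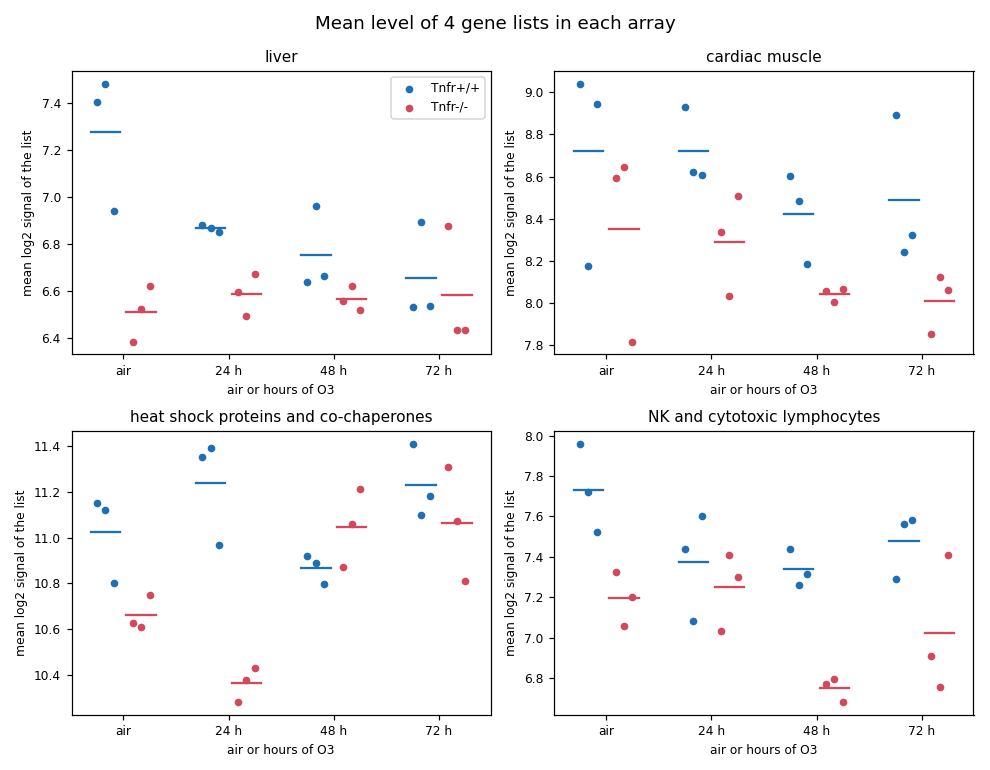
Mean log2 intensity (vertical axis) of 4 gene lists in each of the 24 arrays by air or hours of O3 (horizontal axis); points are arrays and bars are means of 3. The liver level is highest in Tnfr+/+ air, the heat shock level of Tnfr-/- is lowest at 24 h, and the cardiac level runs from 7.82 to 8.65 within the Tnfr-/- air arrays.

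Among leukocytes, genes of NK and cytotoxic lymphocytes were tested first. All 17 had a negative difference (5847 of all 11597 genes did), with a median of -0.42, 0 were called, and 4 were lower at an unadjusted p under 0.05 (3.73% of all genes), a count that was 2 without Tnfr+/+ replicate 1. Of the 17 genes, 3 lie within 20 Mb of Tnfrsf1a or Tnfrsf1b. In bulk lung, fewer cells of a type and less RNA per cell cannot be told apart. The mean level of the list was 7.96, 7.72 and 7.52 in Tnfr+/+ and 7.32, 7.06 and 7.2 in Tnfr-/- lungs, without overlap. Gzma, a granzyme of cytotoxic granules, had 1383, 1344 and 873.1 units against 485.4, 270.8 and 416.1 (-1.63, SE 0.41, limma adjusted p = 0.217). Ccl5, a chemokine that draws T cells, had 815, 886.9 and 603.2 against 469, 393.3 and 429.4 (-0.82, adjusted p = 0.263). The list had a negative median at the O3 times too, with -0.169, -0.659 and -0.552.

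Of 16 neutrophil genes tested, 4 were lower at an unadjusted p under 0.05 (3.73% of all genes), 0 were called and the median was -0.181, and leaving out Tnfr-/- replicate 1 gave 0 and Tnfr+/+ replicate 2 gave 2. S100a8 and S100a9 encode calprotectin, the main cytosolic protein of neutrophils. S100a8 had 1827, 1193 and 1208 units in Tnfr+/+ and 390.1, 377 and 806.4 in Tnfr-/- lungs (-1.49, limma adjusted p = 0.537), and S100a9 had 1559, 1557 and 1042 against 367.2, 424.4 and 766.3 (-1.47, adjusted p = 0.531). At 24 h of O3 their differences were 1.18 and 1.32 in the other direction. At 48 h (-0.82 and -0.79) and 72 h (-1.37 and -1.25) they had the same sign as in air. The interaction test of air against the mean of the 3 O3 times gave them an unadjusted p of 0.0941 and 0.0692. That test does not address 24 h by itself. For B cells, T cells and alveolar macrophages the median differences were 0.086, -0.042 and 0.036 with 0 genes called, and 0 genes of alveolar type 2, club, endothelial or fibroblast lists were called.

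Heat shock proteins are the chaperones of stressed cells. Of 29 of their genes tested, 24 had a negative difference (5847 of all 11597 genes did), 10 were lower at an unadjusted p under 0.05 (3.73% of all genes), 0 were called and the median was -0.352. Hsp90aa1, the inducible HSP90, had 11080, 9009 and 7688 units against 5920, 6212 and 6030 (-0.60, SE 0.16, limma adjusted p = 0.271). Hsph1, a co-chaperone of HSP70, had 4971, 6475 and 3389 against 1866, 2501 and 3082 (-0.97, adjusted p = 0.401). The groups did not overlap on these, the brightest probe sets of either gene, but did on 2 dimmer ones of Hsp90aa1 and 1 of Hsph1. Of all probe sets, 15.4% did not overlap in air. At 24 h of O3 the list was lower again, with 22 of 29 genes past an unadjusted p of 0.05 against 7.39% of all genes and a median of -0.801, while at 48 and 72 h the medians were 0.199 and -0.133. The count in air was 4 without Tnfr-/- replicate 1 and 6 without Tnfr+/+ replicate 1 or 2.

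The heat shock element, read as GAA, TTC and GAA with 2 free bases between each and searched on both strands, was in 0.603% of all promoters and in 7 of 31 promoters of these genes (22.6%), from 24 genes of which Chordc1, Dnajb6, Hspd1, Hspe1 and Hsph1 held it. The 7 are not all separate sites, since Hspe1 and Hspd1 share theirs and the 2 Hsph1 promoters hold the same one. The shared promoter of Hspe1 and Hspd1, which are transcribed away from each other, is shown because both genes were lower in air at an unadjusted p under 0.05 (-0.74 and -0.43). The site of Hsph1, just after its start, is given with the bases beside it.
Hspe1 (chr1:55087989-55088141, plus strand): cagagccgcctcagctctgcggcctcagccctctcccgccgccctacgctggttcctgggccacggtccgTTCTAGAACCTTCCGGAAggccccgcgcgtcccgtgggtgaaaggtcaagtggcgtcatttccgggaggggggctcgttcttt
Hsph1 (chr5:149636280-149636308, minus strand): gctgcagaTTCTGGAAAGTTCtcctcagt

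A further 4 genes that the article names for air did not pass the adjusted test, which is stricter than the unadjusted threshold of the article's methods. Ccl17 alone of these 4 was under 0.05 without adjustment on its representing probe set, as was a dimmer probe set of Hspa4l. Hspa4l, a relative of HSP110, had a difference of -0.46 on its brightest probe set (1593, 1313 and 1094 against 648.9, 1094 and 1233, which overlapped, limma adjusted p = 0.751). Ccl17, a chemokine of dendritic cells, had 352.5, 377.9 and 376.7 against 225.6, 269.8 and 301.1 (-0.48, adjusted p = 0.586). Cyp1a1, which oxidizes aromatic hydrocarbons, had 903.7, 1351 and 1063 against 596.8, 706 and 486.5 (-0.89, adjusted p = 0.754). Cyp3a11, a liver cytochrome, had 308.9, 145 and 172.1 against 140.2, 171.1 and 114.7 (-0.50, adjusted p = 0.842).

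Whether the genotype effect in air differed from that after O3 was tested directly, as the air difference minus the mean of the 3 O3 differences. Of the 20537 probe sets, 1082 had an unadjusted p under 0.05 in the limma fit, and the smallest adjusted p was 0.444. The number that passed an adjusted p of 0.05 was 0. Without Tnfr+/+ replicate 2 it was 2 probe sets, and without Tnfr+/+ replicate 3 or Tnfr-/- replicate 1 it was 1. Of the 18 probe sets called in air, 5 were among the 1082. They included the called probe set of Apoa1 (unadjusted p = 0.000104), the brightest of Pttg1 (0.000697) and the called one of Slc25a10 (0.0101). The 18 were chosen by the air difference that enters this test, so the 5 are not independent of that choice.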

How the data were processed

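Lung RNA of 24 mice was measured on Affymetrix MOE430A arrays. The authors deposited 1 intensity per probe set on a linear scale, made with MAS5 in Affymetrix Expression Console per the submitters' processing notes, with no version given in the sources used here. For the 22644 probe sets, quantile normalization across all 24 arrays came first, then a floor of 1 and log2. After removal of 64 controls, a probe set stayed in if any array had it no lower than that array's percentile 20 (20537 probe sets, 11597 genes), after the study's methods. Means of the 8 groups were fitted in 1 model with limma 3.58.1 in R 4.3.3 (16 residual and 2.38 prior degrees of freedom), Benjamini-Hochberg adjusted, called under 0.05, and tested on simulated data. Precision is limited by 3 arrays in a group. Of the non-control probe sets, 20338 had 1 gene, 691 had several and 1551 were not listed in the annotation, and symbols were updated through Entrez ID for 20309. A gene was represented by its brightest probe set.

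The named genes were those with the 12 largest rises and falls among genes whose representing probe set was called, was at or above the median level and did not overlap between groups (7 met this), the genes the article names for air, both receptors, called genes within 20 Mb of them, and list members by role or in order of p. Vamp3, Slc25a10, Apoa1 and Tshb were added after their values were seen, because a probe set of theirs was called. The members and the 38 gene lists were chosen with earlier results of these data known. Alternatives in normalization, filter, floor, samples, weights, block and test are given in the closing section. Replicate numbers were not used to pair the samples in the main fit. The correlation of deviations between same-numbered Tnfr+/+ and Tnfr-/- air arrays was 0.00622, -0.0193 and -0.0372. Between differently numbered ones it ran from -0.0275 to 0.0464. With 3 arrays in a group, these values do not settle whether the numbers mark a pairing.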

Additional observations from a re-analysis of the deposited data

How the results depend on the processing

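The 18 probe sets called in air became 33 under a filter at the array median, 42 without Tnfr+/+ O3 72 h replicate 1 and 99 with array quality weights. An ordinary t-test of the air arrays called 1 (1727 at an unadjusted p under 0.05), which shared 0 with the 18. The article's methods name a t-test for air and its legends a moderated one, so this ordinary test may not be the one used there. Leaving out each air array gave 12 to 27. The 10 called genes that kept their direction became 18 with the median filter, 21 without that O3 array and 51 with quality weights. They numbered 6 to 12 without single air arrays. Called genes within 20 Mb of a receptor numbered 3, and 1 with the air arrays alone or a window of 5 Mb, 5 without Tnfr+/+ O3 72 h replicate 1, 8 with array quality weights, 0 by the t-test and 1 to 4 without single air arrays. The interaction gave 1 with a floor of 16 or with array quality weights and 0 to 2 without single air arrays. With the replicate block, 25 probe sets were called, 17 of them among the 18, and 5 genes lay near a receptor. The labels do not say whether a replicate number marks a batch, so whether this block fits the design was not tested. The 15 called probe sets of named genes kept their direction in all 239 values over these settings and passed the threshold in 175. Rab6b, the brightest probe set of Pttg1 and 1 probe set each of Vamp3 and Dbp were called in 15 of 16.

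Filtering at the array median moved the median of clock genes to 0.263, of neutrophil genes to -0.33 and of liver genes to -0.272. Without single air arrays the medians ran from 0.06 to 0.254 for clock genes, -0.503 to -0.316 for heat shock genes, -0.658 to -0.449 for liver, -0.698 to -0.207 for cardiac muscle and -0.538 to -0.284 for NK genes. The median of MHC class II genes turned to 0.013 without Tnfr-/- replicate 2 (range -0.211 to 0.013) and that of goblet cell genes to 0.119 without Tnfr-/- replicate 3 (range -0.64 to 0.119). The counts of list members without single arrays were chosen after seeing the data. The cause of these changes was not tested. The strain background, the hour of killing and other tissue in the sample are not separated from receptor loss by this design.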

Other observations

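Across the genome, genes with an unadjusted p under 0.05 in air and the same sign at all 3 O3 times were counted in windows of 10 Mb holding at least 20 tested genes, 210 in all, with a median of 1.94% of genes. The highest share was on chromosome 9, with 13 of 76 genes (17.1%), above the windows on chromosome 4 around Tnfrsf1b (10 of 62, 16.1%) and next to it (9 of 65, 13.8%), on chromosome 13 with Nnt (4 of 33) and on chromosome 11 with Pttg1 (4 of 35). The chromosome 9 genes included Sc5d, a sterol desaturase, at 434.4, 474 and 460.3 units in Tnfr+/+ and 248.7, 250.6 and 227.5 in Tnfr-/- lungs (-0.91, limma adjusted p = 0.0525). A dimmer Sc5d probe set differed by 0.0025 in air (limma adjusted p = 0.999) and by 0.36, 0.55 and 0.97 after O3. Dpagt1, the first enzyme of N-glycosylation, differed by -1.08 (adjusted p = 0.0547) and by -0.84, -0.51 and -0.75 after O3. Nnmt, nicotinamide N-methyltransferase, had 310, 251.8 and 343.7 against 96.54, 100.6 and 52.31 (-1.91, adjusted p = 0.13). Its 12 Tnfr-/- arrays lay below all 12 Tnfr+/+ arrays, and the difference at 48 h of O3 was -3.49. The windows were ranked after their values were seen and no test was made of them.

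At an unadjusted p under 0.05, 3.73% of all genes were lower and 2.79% higher. Of the lists not yet described, 29 chemokine genes had a median of -0.212 with 3 lower at an unadjusted p under 0.05, 13 smooth muscle genes a median of -0.287 with 2 lower, and 8 plasma cell genes a median of -0.364 with 1 lower, and none was called. Of 25 immediate early genes 21 had a positive and 4 a negative difference, where 5847 of all 11597 genes had a negative one. Only 1 (Atf3) was past an unadjusted p of 0.05. Of 31 extracellular matrix genes 5 were lower at that threshold, among them Mmp3 (-0.62) and Spon2 (-0.80), and 0 were called.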
